A study of Mus musculus with 6 samples.

Results

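Oxytocin and vasopressin are the main hormones of the paraventricular nucleus of the hypothalamus (PVN), and their genes, Oxt and Avp, are described here across a study of electroconvulsive seizure (ECS) in mice. Every probe set whose only gene symbol is Oxt or Avp was taken, which gave 2 of 22626 probe sets, 1420556_at for Oxt and 1450794_at for Avp, or 2 of the 12393 genes that have a probe set with 1 symbol. No probe set with several symbols contained either gene. Both passed the signal filter on all 6 arrays, so neither owed its entry to one group.

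The study has 3 groups of C57Bl/6 mice, all anaesthetized with isoflurane. ECS 6 h and ECS 2 h mice received 1 shock of 25 mA through ear clips, lasting 1 s, and their brains were taken 6 h or 2 h later. Sham mice had the same handling without current and were taken at 2 h, so the study has no sham group at 6 h. The PVN was cut by laser from 7 µm frozen sections, and RNA of 2 or 3 animals was pooled for each array. Each group holds 2 pools of different animals, numbered replicate 1 and replicate 2.

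Magnocellular neurons of the PVN send axons to the posterior pituitary and release oxytocin or vasopressin into the blood. Oxytocin drives milk ejection and uterine contraction, and vasopressin makes the kidney retain water. Smaller PVN neurons release vasopressin together with corticotropin-releasing hormone and so act on the pituitary stress axis. Each hormone is cut from a larger precursor that also holds a neurophysin, the carrier protein of the granule. The genes are neighbours on mouse chromosome 2, with 0 annotated genes between them, and lie on opposite strands. In bulk tissue, fewer cells of a type and less RNA per cell cannot be told apart, and this holds for all values below.

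The 250 bases before the start of each gene are shown because Oxt and Avp lie next to each other but are read from separate promoters. Both come from RefSeq on GRCm38.p6, Oxt from chr2:130575919-130576168 on the plus strand and Avp from chr2:130582589-130582838 on the minus strand. Capitals mark letters that matched a searched motif.
Oxt: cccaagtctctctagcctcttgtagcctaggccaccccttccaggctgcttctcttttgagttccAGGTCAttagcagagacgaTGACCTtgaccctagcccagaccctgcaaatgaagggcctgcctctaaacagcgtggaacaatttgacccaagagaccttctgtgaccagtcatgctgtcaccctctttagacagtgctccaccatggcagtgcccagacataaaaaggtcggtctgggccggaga
Avp: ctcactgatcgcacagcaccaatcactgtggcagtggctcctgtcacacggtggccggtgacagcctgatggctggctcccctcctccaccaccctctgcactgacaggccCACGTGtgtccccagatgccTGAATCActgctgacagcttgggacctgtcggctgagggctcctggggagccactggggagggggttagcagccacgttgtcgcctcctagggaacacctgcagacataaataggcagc

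The 2 promoters shared no searched motif. The Oxt stretch holds the nuclear receptor half-site AGGTCA on both strands, starting 185 and 166 bases before the gene, a letter pattern that 16.3% of 32851 promoter windows of 300 bases hold at least once on either strand. The Avp stretch holds the E-box CACGTG, 139 bases before the gene and present in 7.15% of windows, and the AP-1 motif TGANTCA, 119 bases before it and present in 7.81%. CACGTG is a site form of the clock factors. TGANTCA, in which N stands for any base, is a loose form of the site of Fos and Jun dimers, and the match in Avp is TGAATCA. Binding to either sequence was not tested. Neither stretch holds the CRE TGACGTCA (1.79% of windows), the shorter TGACG (20.8%), the glucocorticoid half-site AGAACA (19% of windows) or the TATA box TATAAA (13.6%), all searched on both strands. The longest run of letters in both stretches is cagacataaa, 31 bases before the start of Oxt and 18 before that of Avp, found in 10 of 32851 windows of 250 bases. It was picked after the sequences were seen.

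The arrays showed the PVN, but not with all of its markers. Sim1, a transcription factor needed for the nucleus to form, had deposited signals of 334.1 to 335.4 in ECS 6 h pools, 281.7 to 348.7 in ECS 2 h pools and 267.6 to 276.6 in sham pools, against array medians of 25.2 to 40.8. Otp, another factor of the same lineage, lay below the array median in all 6 pools at 2.1 to 17.3, and Crh has no probe set of its own. Replicate 1 of ECS 6 h stood apart from the other arrays, with a 3' to 5' signal ratio of Gapdh of 14.1 against 6.43 to 10.5 elsewhere. On the first principal component (32.2% of the variance) it scored 54.6, and the others scored -25.2 to 7.06. Values below are log2(signal + 16) after quantile normalization, on which 4 is the floor, and changes are limma estimates (a linear model per probe set over all 6 arrays) with their standard error (SE).

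The mean level of Oxt was highest in ECS 6 h pools. Its deposited signals were 3285.9 and 2183.1 in ECS 6 h pools, 1856.6 and 1993.1 in ECS 2 h pools, and 1494.5 and 1988 in sham pools (replicate 1, then replicate 2). On the normalized log2 scale these became 11.48 and 11.02 in ECS 6 h, 11.11 and 10.86 in ECS 2 h, and 10.85 and 10.80 in sham. On this scale all 4 ECS pools lay above both sham pools, while the ECS 6 h and ECS 2 h pools overlapped. As deposited, ECS 2 h replicate 1 lay below sham replicate 2, and the ECS 6 h and ECS 2 h pools did not overlap. The probe set was brighter than 98.0% to 99.0% of probe sets on every array, which describes the probe set and not the number of transcripts.

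Avp followed the same order of group means with a different weak point. Its deposited signals were 1246.5 and 1118.8 in ECS 6 h pools, 916.2 and 1036 in ECS 2 h pools, and 804.3 and 873.7 in sham pools. Normalized log2 levels were 10.14 and 10.07 in ECS 6 h, 10.13 and 9.94 in ECS 2 h, and 10.01 and 9.53 in sham. On this scale both ECS 6 h pools lay above both sham pools, and 1 of 2 ECS 2 h pools fell within the sham range. In the deposited signals, and with median subtraction, both ECS 2 h pools lay above both sham pools. On the normalized scale the wide pair was sham, where replicate 2 was the lowest of all 6 pools, whereas for Oxt the wide pair was ECS 6 h. In the deposited signals sham replicate 1 was the lowest Avp pool instead.

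**Figure D1:**
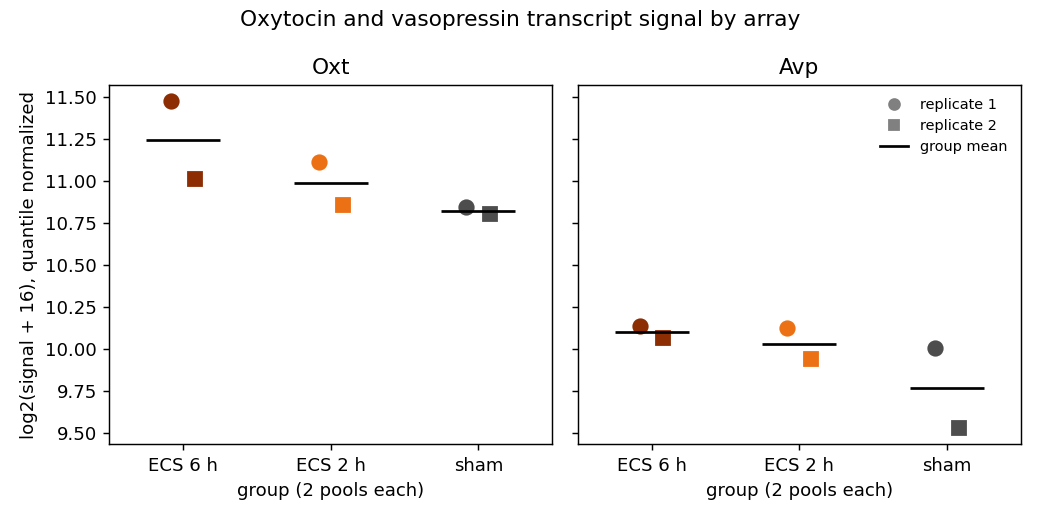
Normalized log2 signal (y axis) of Oxt (left) and Avp (right) in each pool of the 3 groups, with circles for replicate 1, squares for replicate 2 and a bar for the group mean. The Oxt pools run from 10.80 in sham to 11.48 in ECS 6 h, and the lowest Avp pool is sham replicate 2 at 9.53.

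The comparison of ECS 6 h with sham asks whether hormone transcripts differ late after the seizure. It also holds the difference between collection at 6 h and at 2 h, since sham was taken at 2 h. Oxt averaged 11.25 ± 0.325 in ECS 6 h and 10.82 ± 0.0309 in sham (SD, n = 2 each), a log2 change of 0.421 ± 0.19 (SE), or 1.34-fold with a 95% interval of 1.00 to 1.79. Avp averaged 10.10 ± 0.0506 in ECS 6 h and 9.77 ± 0.336 in sham, a log2 change of 0.333 ± 0.234, or 1.26-fold with an interval of 0.881 to 1.80. Neither passed in limma after Benjamini-Hochberg adjustment over 12662 probe sets (adjusted p = 1.00 for both), and limma called 0 of the 12662 (0%). Before adjustment p was 0.0495 for Oxt, a level that 3.76% of all tested probe sets reached (476 of 12662), and 0.183 for Avp. Pools without overlap and higher in ECS 6 h, as for both genes, occurred in 14.8% of all tested probe sets, and pools without overlap and lower in 15.3%. A change of at least 2-fold without overlap, which neither gene had, occurred in 3.24%. The intervals reach from close to no change, or below it, up to 1.79-fold for Oxt and 1.80-fold for Avp.

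Single pools carried much of both values. Without ECS 6 h replicate 1, the array that stood apart, the log2 change of Oxt was 0.186, and without ECS 6 h replicate 2 it was 0.651. For Avp the change was 0.0974 without sham replicate 2 and 0.575 without sham replicate 1. With median subtraction in place of quantile normalization the changes were 0.657 for Oxt and 0.512 for Avp.

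For ECS 2 h against sham, which asks about the early response, both genes lay closer to sham. Oxt averaged 10.99 ± 0.18 in ECS 2 h and 10.82 ± 0.0309 in sham, a log2 change of 0.163 ± 0.19, or 1.12-fold with a 95% interval of 0.837 to 1.5. Avp averaged 10.03 ± 0.134 in ECS 2 h and 9.77 ± 0.336 in sham, a log2 change of 0.265 ± 0.234, or 1.20-fold with an interval of 0.84 to 1.72. Neither passed (adjusted p = 1.00 in limma for both), and limma called 0 of 12662 probe sets (0%), with 507 (4%) at an unadjusted p under 0.05. The absence of overlap seen for Oxt on the normalized scale, higher in ECS 2 h, was shared by 16.3% of tested probe sets. A further 16.4% were lower without overlap, and 3.42% changed at least 2-fold without overlap. The change of Oxt was 0.0343 without ECS 2 h replicate 1 and 0.295 without ECS 2 h replicate 2. That of Avp was 0.0274 without sham replicate 2 and 0.505 without sham replicate 1.

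ECS 6 h set against ECS 2 h compares seizure pools alone. Without a sham group at 6 h, time after the seizure cannot be told apart from the difference in collection. Oxt gave a log2 change of 0.258 ± 0.19 (95% interval -0.162 to 0.677) and Avp one of 0.0683 ± 0.234 (-0.448 to 0.585), both with an adjusted p of 1.00 in limma, which called 0 probe sets (0%) and had 436 (3.44%) at an unadjusted p under 0.05. With the replicate number as a block the unadjusted p of Oxt was 0.0695, against 0.202 without it, and the adjusted p 0.849. Without ECS 6 h replicate 1 the change of Oxt was 0.0259, and without ECS 6 h replicate 2 it was 0.492. Of all tested probe sets 2.96% differed at least 2-fold without overlap here. With all 4 seizure pools set against the 2 sham pools, the log2 change was 0.292 ± 0.164 for Oxt and 0.299 ± 0.202 for Avp, again with an adjusted p of 1.00. With single arrays left out these ran from 0.174 (without ECS 6 h replicate 1) to 0.405 for Oxt, and from 0.0624 (without sham replicate 2) to 0.54 (without sham replicate 1) for Avp. In this comparison limma also called 0 probe sets (0%), with 532 (4.2%) at an unadjusted p under 0.05. Its ECS pools were taken at 6 h or 2 h, and its sham pools at 2 h only. An order in which 4 seizure pools all exceed both sham pools, as Oxt showed, occurred in 6.02% of tested probe sets, and 1.62% differed at least 2-fold without overlap. A moderated F test over the 3 groups gave F = 2.5 for Oxt and F = 1.13 for Avp (adjusted p = 1.00 in limma for both).

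**Figure D2:**
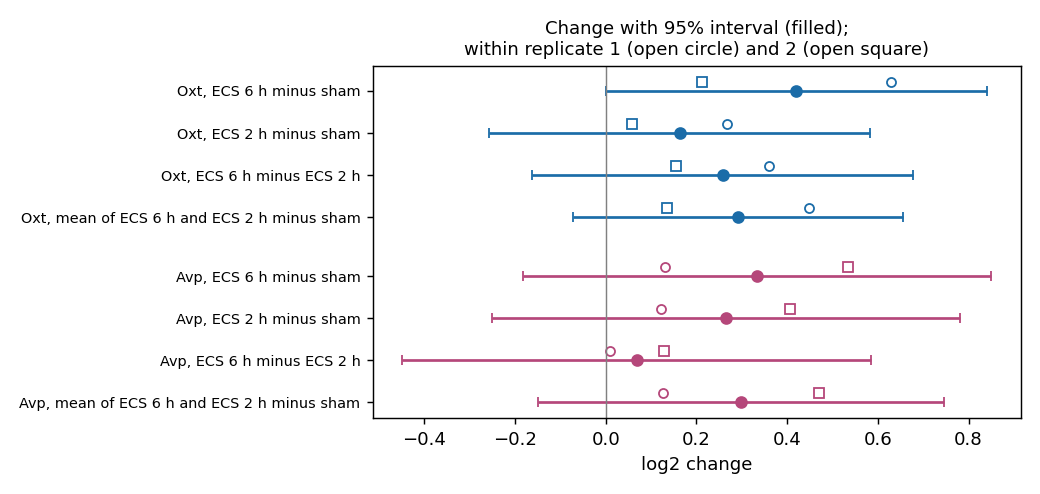
Log2 change (x axis) of Oxt and Avp in the 4 comparisons, with filled points and bars for the limma estimate and its 95% interval, and open symbols for the change within replicate 1 (circle) and replicate 2 (square). All open symbols lie at or above 0.00929, and all intervals but that of Oxt at 6 h against sham (0.00111 to 0.84) include 0.

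The same order of groups recurred within each replicate number. In replicate 1 the change of Oxt against sham was 0.629 in ECS 6 h and 0.268 in ECS 2 h, and in replicate 2 it was 0.212 in ECS 6 h and 0.0575 in ECS 2 h. For Avp it was 0.132 in ECS 6 h and 0.122 in ECS 2 h of replicate 1, and 0.535 in ECS 6 h and 0.407 in ECS 2 h of replicate 2. Both genes thus ran ECS 6 h above ECS 2 h above sham in both replicates, also in the signals as deposited, where no scaling had been applied. Of all 12662 tested probe sets, 390 (3.08%) showed this order in both replicates. The pattern was noticed in these values and was not tested, and several of its steps are small, such as 0.00929 between ECS 6 h and ECS 2 h for Avp in replicate 1. Replicate 1 was also above replicate 2 in all 3 groups for both genes, as it was for 18.4% of tested probe sets, but not in the signals as deposited.

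Oxt and Avp tended to be high in the same pools. Over the 6 pools Spearman's rho was 0.943 (exact permutation test, two-sided p = 0.0167) and Pearson's r was 0.645 (exact permutation p = 0.169), the only relation tested. The test exchanges all 6 pools freely, although pools share a group and a replicate number, so its p does not allow for that structure. Without ECS 6 h replicate 1 and ECS 2 h replicate 1, the pools farthest from the median of Oxt, r was 0.695 over 4 pools. A replicate number holds 3 pools, too few for a value of its own. In the signals as deposited, where both genes also share each array's brightness, r was 0.902 (exact permutation p = 0.00417). With median subtraction, which removes each array's median, r was 0.892 (exact permutation p = 0.00972). Why r was lower after quantile normalization was not tested. Among 7331 genes, 944 including Avp had at least the normalized r of 0.645 with Oxt. With Avp, 689 genes including Oxt had at least that r. No such count is given for rho, so its value of 0.943 has no background of other genes.

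**Figure D3:**
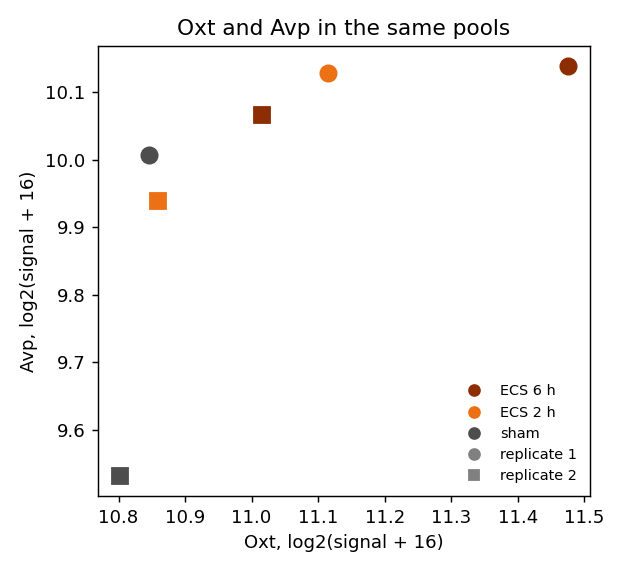
Avp (y axis) against Oxt (x axis), both as normalized log2 signal, 1 point per pool, coloured by group, with circles for replicate 1 and squares for replicate 2. The pools rise together from sham replicate 2 at 10.80 and 9.53, but at the top Oxt separates ECS 6 h replicate 1 (11.48) from ECS 2 h replicate 1 (11.11), which Avp does not (10.14 and 10.13).

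Whether one hormone changed more than the other was read from the log2 difference of Avp minus Oxt in the same pool, of which only the change between groups has a meaning. It was -1.34 and -0.949 in ECS 6 h, -0.986 and -0.921 in ECS 2 h, and -0.84 and -1.27 in sham. All ECS pools but ECS 6 h replicate 1 lay within the sham range. The group means differed by -0.0874 between ECS 6 h and sham (exact permutation p = 0.667), by 0.102 between ECS 2 h and sham (exact p = 1) and by -0.19 between ECS 6 h and ECS 2 h (exact p = 0.667). With 2 pools against 2 the smallest possible two-sided p is 0.333, so no such difference could have passed. With all 4 seizure pools against sham the difference was 0.00734 (exact p = 1), where the smallest possible p is 0.0667.

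Genes whose pattern over the 6 pools was most like that of Oxt, by Pearson's r, were Alad, an enzyme of haem synthesis (0.988), Chid1, a chitinase-like protein (0.988), Dhx30, an RNA helicase (0.985), Ggps1, which makes geranylgeranyl diphosphate (0.98), and Terf1, a telomere-binding protein (0.978). In all 5 the highest pool was ECS 6 h replicate 1 and the next ECS 2 h replicate 1, the same leading pools as for Oxt. The genes most like Avp were Trmt112, an activator of methyltransferases (0.982), LTO1, an assembly factor named as in the array annotation (0.978), Haus1 of the augmin complex (0.971), Slc41a1, a magnesium transporter (0.961), and Rbm14, an RNA-binding protein (0.958). In all 5 sham replicate 2 was the lowest pool, as it was for Avp. Without scaling the r with Avp was 0.564 for Haus1 and 0.543 for Rbm14, and without sham replicate 2 it was 0.7 for Haus1. With 6 pools a high r is not particular to the named genes: 109 of 7331 genes had an r above 0.9 with Oxt and 59 with Avp.

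The receptors of the hormones gave little signal. Oxtr, the oxytocin receptor, was listed at 0.7 to 4.5, and the vasopressin receptors Avpr1b and Avpr2 at 0.2 to 7, all below the median of their arrays and not tested. Avpr1a, the vasopressin receptor of vessels and brain, was the 1 of 4 tested, at 5.87 ± 1.10 in ECS 6 h, 5.20 ± 0.551 in ECS 2 h and 5.67 ± 0.394 in sham, with overlapping pools and an adjusted p of 1.00 against sham at both times.

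Enzymes and granule proteins that turn the precursors into secreted hormone were measured for 10 of 12 listed genes. Of these 7 had a positive and 3 a negative change at 6 h, and 5 each way at 2 h, with medians of 0.123 and 0.116, where all 7332 tested genes had medians of -0.00218 and 0.0125. The sign rested on single arrays: the median at 6 h was -0.0146 without sham replicate 1 and -0.101 without ECS 6 h replicate 2, and that at 2 h was -0.0693 without sham replicate 1 and 0.00849 without ECS 2 h replicate 2. Of all tested probe sets, 49.6% had a positive change at 6 h and 50.9% at 2 h. At each time the pools of 2 of the 10 lay above sham without overlap, and those of 2 lay below. Of all tested probe sets 14.8% lay above and 15.3% below without overlap at 6 h, and 16.3% and 16.4% at 2 h. None of the 10 passed in limma in either direction at either time (adjusted p = 1.00 for the 4 named next). Pcsk1, the convertase that makes the first cut, stood at 8.70 ± 0.349 in ECS 6 h, 8.65 ± 0.128 in ECS 2 h and 8.0 ± 0.203 in sham, and both ECS groups lay above sham without overlap. Scg2, a granule protein, was at 10.60 ± 0.314, 10.49 ± 0.344 and 9.89 ± 0.845 in the same groups. Pam, which amidates the C-terminus of both hormones, was at 9.15 ± 0.577, 9.39 ± 0.387 and 8.84 ± 0.881, and Chgb, chromogranin B, at 10.68 ± 0.251, 10.45 ± 0.0275 and 10.77 ± 0.0696.

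Transcription factors of PVN neuroendocrine cells include those that build the lineage and those that neuronal activity switches on. Of 12 listed, 9 were tested, with 5 positive and 4 negative changes at each time and medians of 0.0637 at 6 h and 0.285 at 2 h. The median at 6 h was -0.115 without a filter, -0.0321 with a filter at the 75th percentile, -0.0271 without ECS 6 h replicate 2 and 0.171 without sham replicate 1, so its sign was not stable. The median at 2 h was 0.0756 with the 75th percentile filter, 0.0835 without a filter, 0.562 without sham replicate 1 and 0.609 without ECS 2 h replicate 2. None passed over all probe sets. Fos, a subunit of the AP-1 factor, stood at 5.57 ± 0.357 in ECS 6 h, 7.02 ± 0.312 in ECS 2 h and 5.03 ± 0.0131 in sham (adjusted p = 0.58 in limma for ECS 2 h against sham). Jun, its partner, was at 8.75 ± 0.271, 9.22 ± 0.218 and 8.06 ± 0.649 in the same groups, and Egr1, another activity-induced factor, at 7.63 ± 0.196, 9.16 ± 0.388 and 8.21 ± 0.114. The highest group mean of these factors was thus at 2 h, whereas those of Oxt and Avp were at 6 h, an order of means whose difference was not tested. Both sham pools of Fos were dim, at 5.04 and 5.02 on a scale with a floor of 4. The log2 change of Fos at 2 h ran from 1.14 to 2.70 over 16 alternative settings. Creb1, which binds the cyclic AMP response element, was at 6.81 ± 1.04 in ECS 6 h, 6.60 ± 0.0514 in ECS 2 h and 5.87 ± 0.247 in sham. Otp, Esr2, an oestrogen receptor found in oxytocin neurons of rodents, and Creb3l1, which acts on the Avp promoter in the rat, did not pass the signal filter.

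Other peptides and enzymes of PVN neurons had 10 tested members of 12. At 6 h and at 2 h 8 of the 10 changes were positive, with medians of 0.439 and 0.359, beside 0.421 and 0.163 for Oxt and 0.333 and 0.265 for Avp. Without sham replicate 1 the medians were 0.19 and 0.168, and without ECS 2 h replicate 2 the median at 2 h was 0.193. None passed over all probe sets. At 6 h the pools of 4 members lay above sham without overlap, and those of 2, Cck and Nos1, lay below, where 14.8% of all tested probe sets lay above and 15.3% below. The 4 are Sst and 3 genes chosen after their values were seen, namely the peptide genes Penk, Cartpt and Gal. Trh, thyrotropin-releasing hormone, was at 9.98 ± 0.212 in ECS 6 h, 10.29 ± 0.313 in ECS 2 h and 9.58 ± 0.694 in sham, and Sst, somatostatin, at 9.43 ± 0.521, 9.59 ± 0.582 and 8.84 ± 0.0121. Cck, the peptide cholecystokinin, was at 5.12 ± 1.16, 4.61 ± 0.0284 and 6.85 ± 0.2, with ECS 6 h replicate 1 at 4.30 and both ECS 2 h pools near the floor of 4. Nos1, the nitric oxide synthase of neurons, which many magnocellular cells make, was at 6.11 ± 0.158, 5.50 ± 0.00805 and 7.29 ± 0.919. The lowest adjusted p of these 4 was 0.692 in limma, for Cck and Nos1 in ECS 2 h against sham.

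**Figure D4:**
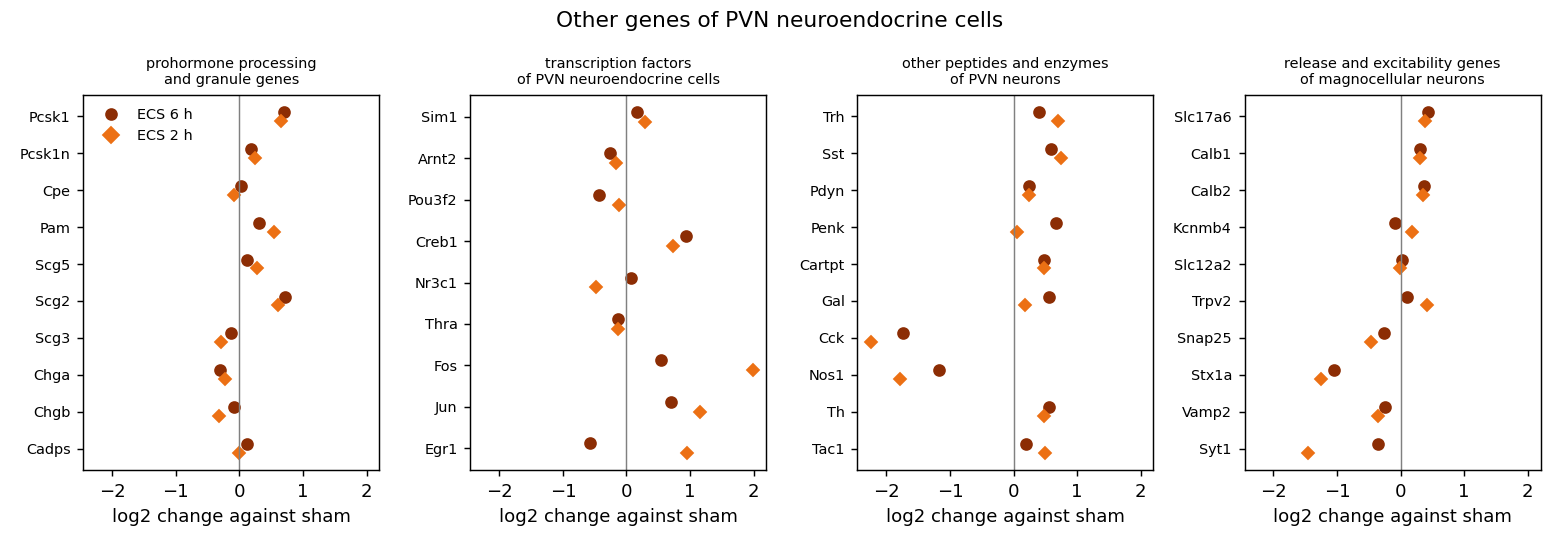
Log2 change against sham (x axis) of each tested gene in 4 lists of PVN neuroendocrine genes, with circles for ECS 6 h and diamonds for ECS 2 h. Most peptide genes lie to the right of 0 at both times, while Cck, Nos1, Stx1a and Syt1 lie to the left, and none passed the test over all probe sets.

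Genes of release and excitability in magnocellular neurons gave 5 positive and 5 negative changes among 10 tested of 12, at both times, with medians of -0.031 at 6 h and 0.0858 at 2 h. Neither sign was stable, since the median at 6 h was 0.0498 without ECS 6 h replicate 1, 0.0222 without ECS 6 h replicate 2 and 0.0907 with median subtraction, and that at 2 h was -0.143 without sham replicate 1 and -0.0377 without ECS 2 h replicate 2. At both times 4 of the 5 negative changes were in genes of vesicle fusion, which all neurons use. Snap25 stood at 12.37 ± 0.057 in ECS 6 h, 12.16 ± 0.177 in ECS 2 h and 12.63 ± 0.144 in sham, Stx1a at 7.64 ± 0.224, 7.43 ± 0.259 and 8.68 ± 0.201, Vamp2 at 11.30 ± 0.396, 11.18 ± 0.0511 and 11.54 ± 0.285, and Syt1, the calcium sensor of release, at 9.24 ± 0.656, 8.13 ± 0.974 and 9.59 ± 0.183. Kcnmb4 made the fifth negative change at 6 h and Slc12a2 at 2 h, both named after their values were seen. None passed, with a lowest adjusted p of 0.692 in limma for Snap25 in ECS 2 h against sham.

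Markers of other cell types, and of neurons in general, differed between the groups in their summed signal, and none passed in limma. The 4 markers of cortex and hippocampus neurons on the array summed to signals of 139 to 542 in ECS 6 h pools, 48.7 to 122 in ECS 2 h pools and 667 to 780 in sham pools, and all 3 tested were lower than sham without overlap at both times, as were 15.3% of all tested probe sets at 6 h and 16.4% at 2 h. Pan-neuronal markers summed to 10955 to 12540 in ECS 6 h, 10181 to 10377 in ECS 2 h and 13193 to 13998 in sham, with 8 of 8 changes negative at both times. Of these 8, Snap25 and Syt1 are also in the release list, so their changes are counted in both lists. Of 8 oligodendrocyte markers, 6 were on the array and 4 were tested. Mobp and Cnp overlapped with sham at both times. Mbp and Cldn11 lay below sham without overlap, as did 15.3% of all tested probe sets at 6 h and 16.4% at 2 h. The 6 on the array summed to 2232 to 2470 in ECS 6 h, 2626 to 2763 in ECS 2 h and 3070 to 3384 in sham. In contrast, the summed signals of the astrocyte, microglia, and endothelial and mural markers overlapped between ECS 6 h and sham. No marker on the array was listed at 0 in any pool. The part of these markers in the values of Oxt and Avp was not tested.

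Vasopressin is also made in the suprachiasmatic nucleus, the clock that lies below the PVN. Of its 6 markers on the array 4 were too dim to be tested, namely Six6, Lhx1, Prok2 and Vipr2, at 0.2 to 44.5 in the deposited signals. The 6 summed to 91.4 to 275.5 in ECS 6 h, 127 to 135 in ECS 2 h and 116 to 144 in sham, and none was listed at 0. Vip, a peptide of this nucleus, was at 4.99 ± 1.03 in ECS 6 h, 4.4 ± 0.378 in ECS 2 h and 6.02 ± 0.13 in sham. Its ECS pools lay below sham without overlap, as did those of 15.3% of all tested probe sets at 6 h and 16.4% at 2 h. The ECS pools of Vip reached down to 4.14, close to the floor of 4. Rgs16, the other marker tested, went the opposite way, at 6.68 ± 1.37 in ECS 6 h, 6.48 ± 0.375 in ECS 2 h and 5.82 ± 0.683 in sham, with overlapping pools. Thalamus markers summed to 882 to 953 in ECS 6 h, 757 to 974 in ECS 2 h and 642 to 805 in sham, 2 of the 6 being shared with the release list, and the 2 ependymal markers on the array to 62.1 to 124 in ECS 6 h, 74.2 to 127 in ECS 2 h and 54.5 to 62.9 in sham.

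The change of the hormones depended on what it was set against. Relative to Sim1 in the same pool, a comparison chosen after seeing the data, Oxt was at 3.11 and 2.68 in ECS 6 h, 2.33 and 2.72 in ECS 2 h, and 2.34 and 2.96 in sham, and the groups overlapped. That gave a difference of 0.249 for ECS 6 h (exact permutation p = 0.667) and -0.122 for ECS 2 h (exact p = 0.667) against sham, and for Avp one of 0.162 (exact p = 0.333) and -0.01995 (exact p = 1). Relative to the mean of the 8 pan-neuronal markers, also chosen after seeing the data, Oxt was at 2.20 and 1.30 in ECS 6 h, 2.05 and 1.41 in ECS 2 h, and 1.07 and 0.993 in sham. The differences against sham were then 0.723 and 0.701 for Oxt and 0.635 and 0.803 for Avp, in ECS 6 h and ECS 2 h. There was no overlap, with an exact permutation p of 0.333, the smallest that 2 pools against 2 can give. All 8 markers were lower than sham on average at both times, so this reference had to raise both hormones. Its members moved unequally, at 2 h from -1.46 for Syt1 to -0.0422 for Eno2.

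**Figure D5:**
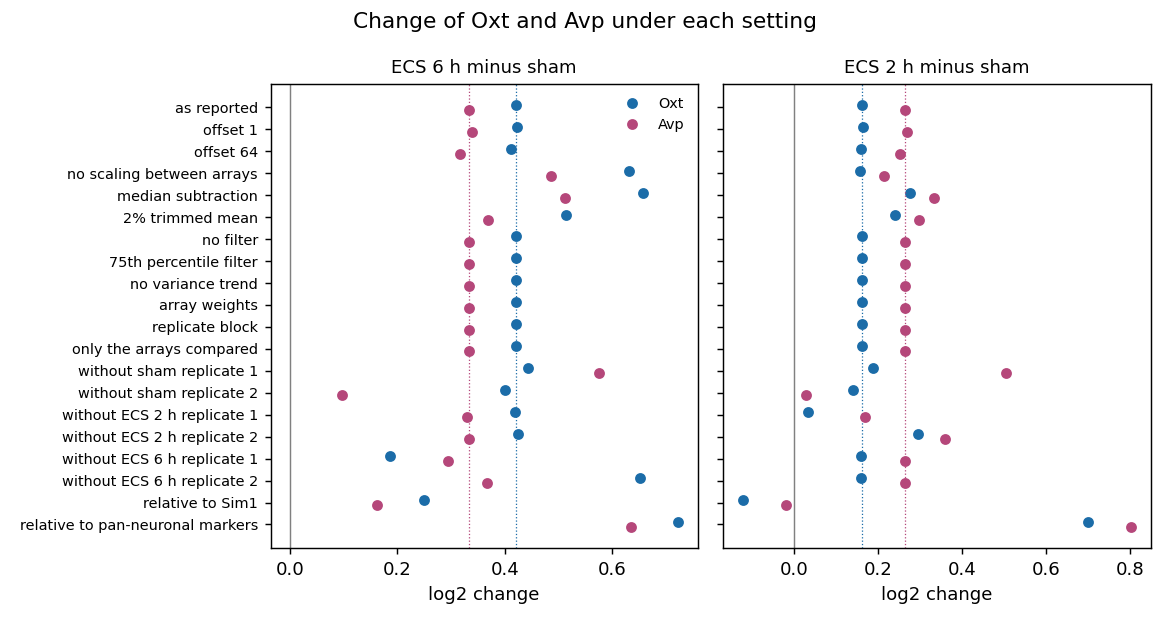
Log2 change (x axis) of Oxt and Avp for ECS 6 h (left) and ECS 2 h (right) against sham under each setting of the processing, with dotted lines at the reported values. At 6 h all settings are above 0, from 0.0974 for Avp to 0.723 for Oxt, and at 2 h the setting relative to Sim1 is below 0 for both genes.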

How the data were processed

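Total RNA of laser-cut PVN (2 ng) was amplified by the Ovation Pico method, and 5 µg of biotinylated product went on each array, per the labels' protocols. The authors deposited intensity values on a linear scale. The submitters' processing notes name MAS5, and its version is not given in the sources used here. Of 22690 probe sets, 64 controls were left out. Array medians ranged from 25.2 to 40.8, so quantile normalization was applied to log2(intensity + 16).

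Probe sets at or above their array's median in at least 2 of 6 arrays (12662, 56%) were fitted by group in limma (version 3.58.1, under R 4.3.3). The moderated test was two-sided and used a variance trend, with 7.64 prior and 3 residual degrees of freedom, and p was adjusted after Benjamini and Hochberg, with a threshold of 0.05. A gene was represented by its brightest probe set. The number of arrays limits the precision. Each pool mixed 2 or 3 animals, so p-values measure the spread between pools.

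Symbols came from the array annotation. Of 22626 probe sets, 20380 carried 1 symbol, 691 several and 1555 none, and 20351 matched RefSeq by Entrez identifier.

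The members, the 14 gene lists and the tests were chosen with earlier results of these data known. Named genes are Oxt and Avp, the 5 genes most correlated with each, and up to 4 members of each of the 5 lists of neuroendocrine genes by the smallest p of the F test. The other 9 lists hold markers of other nuclei and cell types, and of neurons in general. Lists are described by counts and medians.

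Replicate numbers were read as the 2 runs of the experiment, a match that the labels do not state. Deviations of replicate 1 from the group mean correlated across probe sets by 0.185 between ECS 6 h and sham, 0.229 between ECS 2 h and sham and 0.152 between ECS 6 h and ECS 2 h, and blocking on replicate number was one of the alternatives. The procedure was tested on simulated data. Alternatives covered the offset (1 and 64), the scaling, the filter, the variance trend, array weights, the arrays in the fit and each array left out. Array probe sequences were not used here, so cross-hybridisation between the related Oxt and Avp transcripts was not tested.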

Additional observations from a re-analysis of the deposited data

How the results depend on the processing

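Neither Oxt nor Avp passed over all probe sets under any of 17 settings at 6 h or 2 h against sham, and the change kept its sign in these 17. Their adjusted p ran from 0.349 to 1.00. Relative to Sim1 the change at 2 h turned to -0.122 for Oxt and -0.01995 for Avp, and relative to pan-neuronal markers Avp between ECS 6 h and ECS 2 h turned to -0.167. With single arrays left out that comparison of Avp ran from -0.027 to 0.16. With the replicate block the unadjusted p of Oxt at 6 h against sham was 0.00744 (adjusted p = 0.678, limma) and the 95% interval of its log2 change 0.138 to 0.703. The replicate block called 4 probe sets at 2 h and 1 for both ECS groups together, neither being Oxt or Avp, and changed no call named in the report. Calls at 2 h numbered 1 without scaling and with median subtraction, 2 with array weights and 12 with only the arrays compared. With single arrays left out they ran from 0 to 10 at 2 h, 0 to 6 at 6 h, 0 to 3 between ECS 6 h and ECS 2 h and 0 to 14 for both ECS groups together.

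The difference of Avp minus Oxt had no stable sign. With single arrays left out it ran from -0.302 to 0.132 for ECS 6 h against sham, from -0.114 to 0.318 for ECS 2 h against sham, from -0.389 to 0.00467 between ECS 6 h and ECS 2 h, and from -0.208 to 0.225 for both ECS groups together. The last was -0.00133 with an offset of 64, -0.0442 without scaling and with median subtraction, and -0.0444 with a trimmed mean. Pearson's r of Oxt and Avp was 0.902 without scaling (exact permutation p = 0.00417) and 0.892 with median subtraction (exact p = 0.00972). Chgb at 6 h was 0.0985 without scaling and 0.124 with median subtraction. With single arrays left out the change at 6 h ran from -0.584 to 0.974 for Avpr1a, -0.314 to 0.937 for Pam, -0.267 to 0.0855 for Chgb, -0.097 to 0.894 for Trh, -0.532 to 0.0274 for Vamp2 and -0.816 to 0.114 for Syt1, and at 2 h from -0.069 to 1.18 for Pam. The cause of these changes was not tested. Cck in ECS 2 h pools and in ECS 6 h replicate 1, and 3 of the 4 receptors, lie near the floor. Fos was also dim in sham pools. Oxt and Avp lie far above the array median, and compression of bright signals was not tested.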
